A study of Mus musculus with 18 samples.

Results

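Contacts of the mouse Ifng gene were compared between CD4 T cells that lack Stat4 and naive CD4 T cells. The comparison rests on 4 of the 18 arrays analysed from the series, 2 labelled Ifng 4C S4KO and 2 labelled Ifng 4C naïve, chosen by those labels. The knockout group is described as Stat4 KO Th1 cells with Th1 as its treatment, so genotype and activation differ together between it and the naive group. Th1 and Th2 cells, with 2 arrays each and no genotype given, were measured with the same Ifng bait and are set beside them. They show which differences from naive cells are also seen in activated cells not labelled as lacking Stat4. A further 2 Ifng arrays came from 3T3-L1, a preadipocyte line, and entered no test between groups, though a few of their values are given. They entered the shared estimate of the spread and the reference to which arrays were normalized or scaled in the alternatives. All T cells were primary mouse CD4+ cells, and allele, strain, sex and age are not given in the sources used here. The design text calls the arrays individual biological replicates, except for 1 unnamed array hybridised with pooled replicates. Whether a replicate was another mouse or another culture is not said, and the p-values cover array-to-array spread that could be technical.

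4C, circular chromosome conformation capture, reads which DNA lies close in the nucleus to 1 gene of interest, called the bait. Here HindIII cut the crosslinked chromatin, nearby ends were ligated, Csp6I trimmed the products into small circles, and the DNA joined to the bait was amplified and hybridised against genomic DNA cut with both enzymes. Ifng encodes interferon gamma, the defining cytokine of T helper 1 (Th1) cells. Naive CD4 T cells hardly transcribe it. On activation, interleukin 12 acts through the transcription factor STAT4 to drive Th1 differentiation, whereas Th2 cells differentiate under interleukin 4 and STAT6 and keep Ifng silent. STAT dimers bind DNA at the GAS motif, a short inverted repeat.

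The bait's own promoter is shown because it is the gene from which every contact below was read. RefSeq places it in GRCm38.p6 at chr10:118440796-118441095, plus strand, in another build than that of the array. The window runs from 250 bases before the gene's start to 50 after it, and the capitals mark a match to the GAS motif TTCNNNGAA, searched on both strands.
Ifng: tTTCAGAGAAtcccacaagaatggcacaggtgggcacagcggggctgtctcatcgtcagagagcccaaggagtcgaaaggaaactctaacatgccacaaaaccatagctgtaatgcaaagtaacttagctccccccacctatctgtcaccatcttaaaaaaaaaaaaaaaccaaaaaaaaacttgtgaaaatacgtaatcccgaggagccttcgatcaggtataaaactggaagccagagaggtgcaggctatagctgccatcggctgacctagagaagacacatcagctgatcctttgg
The GAS letters stand once, from position 2, and 8.3% of 32851 promoter windows of the same length hold them. Neither cutting site used for the 4C, AAGCTT for HindIII and GTAC for Csp6I, is in this window (7.45% and 35.8% of windows hold them). A match describes letters and is no evidence of binding.

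Values are log2 ratios of 4C DNA over genomic DNA, centred on each array's median off chromosome 10 and averaged in 500-kb bins. So 0 stands for the median probe of chromosomes other than the bait's. Bins are means of probes, and those off chromosome 10 averaged above 0. Their level was 0.0655 and 0.0724 in knockout arrays and 0.0275 and 0.0273 in naive arrays. Positions are in mm8 as inferred from the probes. The highest bin lay between 116500001 and 118500000 of chromosome 10 on all 10 Ifng arrays, where the bait is. Over all probes and over chromosome 10 bins each Stat4 knockout array correlated best with the other one (r = 0.22 and 0.92), as did the naive arrays (0.30 and 0.97). Over bins elsewhere the naive arrays still did (0.76), but knockout replicate 1 correlated higher with naive replicate 2 (0.57), Th2 replicate 1 (0.53) and naive replicate 1 (0.50) than with its mate (0.46). Of the Th1 pair, replicate 2 correlated best with an Il4 Th2 array (0.35 over probes) and replicate 1 with an Ifng Th2 array (0.19), above their own correlation of 0.15, which limits every Th1 value below. Both knockout arrays carry serial numbers that open with 41 and both naive arrays 31. No other Ifng group shares the series 41, so this series and the genotype cannot be told apart. The spread of bins off chromosome 10 differed up to 2.78-fold between Ifng arrays. Knockout replicate 2 stood apart on the sex chromosomes. Its mean was 0.18 on X and -0.10 on Y, against 0.066 and 0.11 in knockout replicate 1, -0.017 and 0.087 in naive replicate 1, and -0.049 and 0.19 in naive replicate 2.

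Along chromosome 10, Stat4 knockout cells lacked the tall, distant contact domains of naive cells and had more contact in the gaps near the bait. Bins above 1 numbered 18 and 28 of 249 in the knockout arrays, against 72 and 78 in the naive arrays. At 40 Mb or more from the bait, 0 and 2 of 149 bins exceeded 1 in knockout cells and 43 and 46 in naive cells. Both Th1 and both Th2 arrays had 0 such bins, and so did both 3T3-L1 arrays. Within 20 Mb the picture turned round, since bins below 0.2 numbered 6 and 0 of 60 in knockout cells and 22 and 26 in naive cells. Th2 arrays had 1 and 0 of these near-empty bins, and Th1 arrays 23 and 38. The levels 1 and 0.2 were chosen after the values were seen and carry no test.

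**Figure D1:**
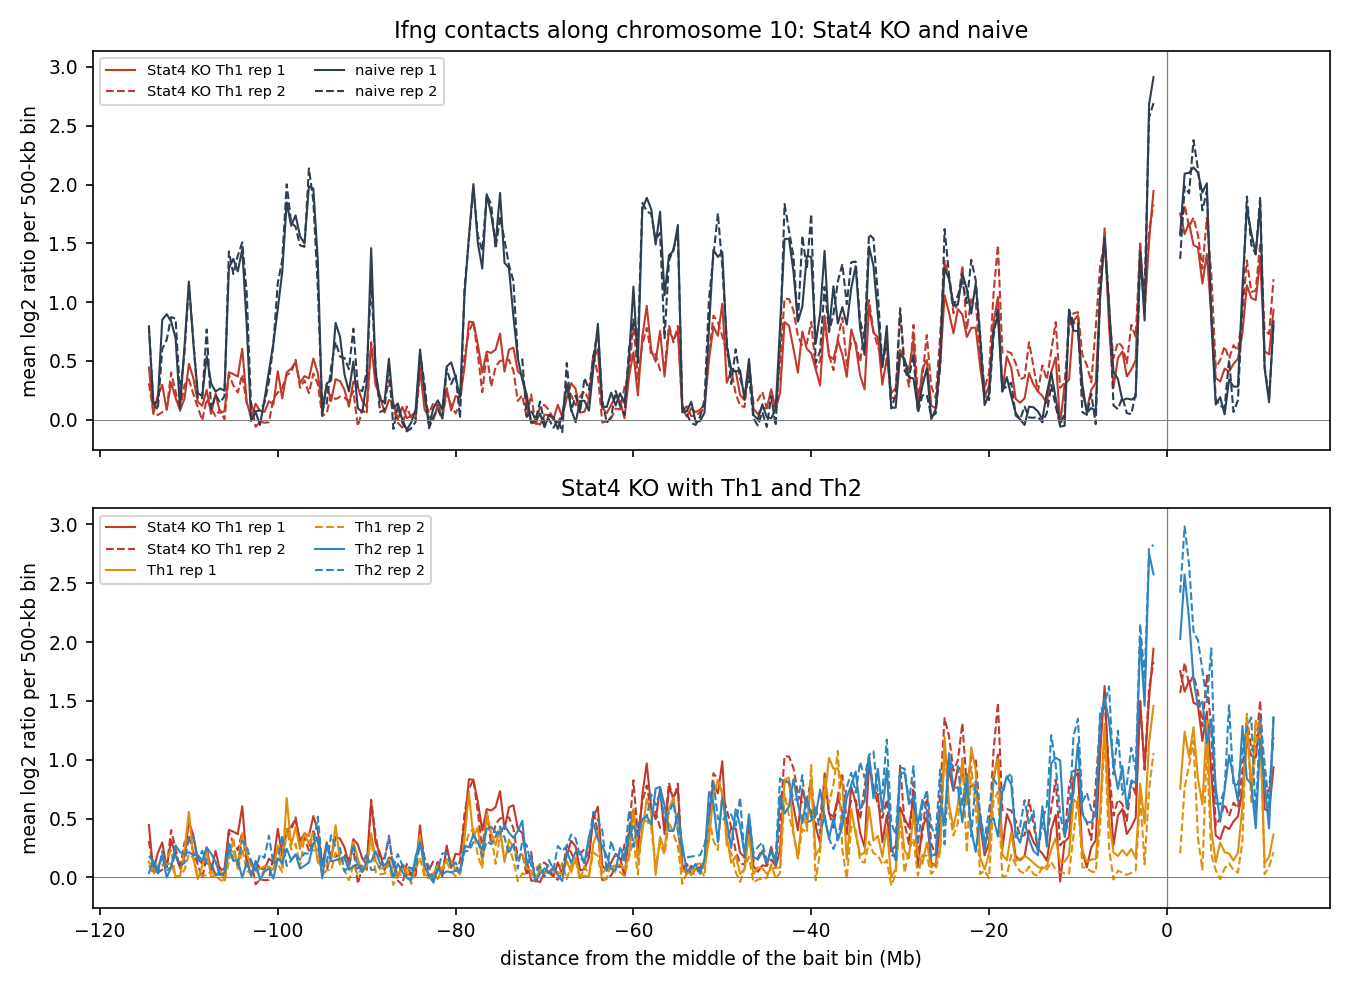
Mean log2 ratio per 500-kb bin along chromosome 10 against distance from the middle of the bait bin, with 1 line per array and bins within 1 Mb of the bait left out. In the upper panel the Stat4 knockout lines stay mostly under 1 beyond 40 Mb while the naive lines form blocks above 1, and in the lower panel the knockout lines run with the Th1 and Th2 lines there.

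In limma over all 10 Ifng arrays, with two-sided p adjusted by Benjamini-Hochberg at 0.05, 458 of 5021 bins (9.12%) differed between knockout and naive cells. On chromosome 10, 99 of 249 bins (39.8%) fell in knockout cells and 25 (10.0%) rose. Off it, 72 of 4772 bins (1.51%) fell and 262 (5.49%) rose. Over all bins 1388 had an unadjusted p under 0.05. The 99 lower bins formed 26 regions of up to 12 bins, with mean changes of -1.09 to -0.22. The 25 higher bins formed 12 regions with changes of 0.24 to 0.53. The knockout and naive arrays did not overlap in any called bin, which follows largely from the call itself and adds no support. Without knockout replicate 2, 182 bins differed in all, 88 of them lower on chromosome 10, and without naive replicate 2, 165 differed, 81 of them lower on chromosome 10. The size of these counts also depended on scaling: after each array was divided by its spread off chromosome 10, 27 bins of chromosome 10 were lower and 8 higher.

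The region that lost most was at 16500001 to 22500000, in bands 10qA2 and 10qA3, near the far end of the chromosome. Over its 12 bins the knockout arrays averaged 0.35 and 0.29, against 1.41 on each naive array, a change of -1.09 (the best bin had SE 0.058 and adjusted p = 1.84e-12 in limma). The groups lay far apart and the arrays of each lay close together. Th1 cells averaged 0.24 ± 0.047 and Th2 cells 0.19 ± 0.055 (SD, n = 2 each). The knockout exceeded their mean in 2 of the 12 bins, those at 19000001 to 20000000, by 0.22 (adjusted p = 0.0149). In those 2 bins the knockout was above Th2 cells by 0.29 (best adjusted p = 0.00369) but was not called against Th1 cells (0.15, best adjusted p = 0.0783). With spread scaling neither bin was called against the mean. The domain was thus low in all 3 kinds of activated cells. The 3T3-L1 arrays, which are not T cells, were low there too (0.089 and 0.083), so a low level is not particular to activated T cells.

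A second block of 12 bins lay at 38500001 to 44500000, in 10qB1 and 10qB2. Knockout arrays averaged 0.60 and 0.51 and naive arrays 1.5 and 1.55, a change of -0.97 (best bin SE 0.049, adjusted p = 3.79e-12). Th1 cells were at 0.31 ± 0.063 and Th2 cells at 0.32 ± 0.043 (SD, n = 2), and the knockout was above their mean in 6 of the 12 bins, none of which remained with spread scaling. The clearest of these was the stretch 38500001 to 40500000, where knockout arrays had 0.69 and 0.67, Th1 arrays 0.45 and 0.30 and Th2 arrays 0.30 and 0.26 (difference 0.35, adjusted p = 3.6e-05).

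At 58000001 to 63000000, in 10qB4, the knockout arrays had 0.63 and 0.60 over 10 bins and the naive arrays 1.48 and 1.42, a change of -0.84 (best bin SE 0.047, adjusted p = 1.78e-11). Contact there was again low but not lost. Th1 cells were at 0.35 and Th2 cells at 0.54, and 4 of the bins were above the mean of both in the knockout, the largest difference being 0.37 at 62500001 to 63000000 (adjusted p = 0.00181). None of these 4 bins was called with spread scaling. Closer to the far end, 11500001 to 14500000 in 10qA1 and 10qA2 had 0.33 and 0.24 in knockout arrays and 1.07 and 1.14 in naive arrays (change -0.82, best adjusted p = 7.81e-10). The region 4500001 to 6500000 in 10qA1 had 0.22 and 0.20 in knockout arrays and 0.82 and 0.75 in naive arrays (change -0.58, best adjusted p = 2.13e-07). These 5 regions, the 4 between 4500001 and 44500000 and the one in 10qB4, kept their call under all 16 alternatives that kept 500-kb bins.

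Lower regions nearer the bait were less stable. At 74000001 to 78000000, in 10qB5.3 and 10qC1, the knockout arrays had 0.60 and 0.79 and the naive arrays 1.21 and 1.36 (change -0.60, best adjusted p = 4.46e-07). At 66000001 to 68000000, in 10qB5.1 and 10qB5.2, they had 0.75 and 0.74 in the knockout and 1.26 and 1.37 in naive cells (change -0.57, best adjusted p = 0.000329). The region 81500001 to 83500000 in 10qC1 changed by -0.51 (best adjusted p = 7.04e-07). All of these lost the call once each array was divided by its own level at 1 to 2 Mb from the bait, which was 1.70 and 1.71 in knockout arrays and 2.32 and 2.15 in naive arrays.

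Beside the bait itself the knockout was also lower than naive cells. At 115500001 to 116500000, in 10qD2, knockout arrays had 1.73 and 1.72 and naive arrays 2.80 and 2.63, a change of -0.99 (best bin SE 0.089, adjusted p = 2.23e-07). Th1 cells had 1.10 ± 0.28 and Th2 cells 2.74 ± 0.10 there (SD, n = 2). The knockout was 0.62 above Th1 cells (best adjusted p = 0.000717) and -1.01 from Th2 cells (8.9e-07), so it lay between the 2 differentiated types. On the other side, 120000001 to 122500000 in 10qD2 had 1.44 and 1.59 in knockout arrays and 2.06 and 2.03 in naive arrays (change -0.53, best adjusted p = 0.000434). The 5 bins next to the bait, not tested, ranged from 2.03 to 2.40 in knockout arrays and from 2.53 to 3.51 in naive arrays. The first of these regions kept its call under 15 of 16 alternatives, with -0.73 after quantile normalization (adjusted p = 0.00247) and -0.32 after scaling by the level at 1 to 2 Mb (0.0147). That level includes the bins of this region itself, so the scaling is no independent check of it. The first region lost the call with spread scaling (-0.24, adjusted p = 0.545), where the second region turned to 0.020. The second region lost its call there, with quantile normalization and after scaling by the level at 1 to 2 Mb.

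**Figure D2:**
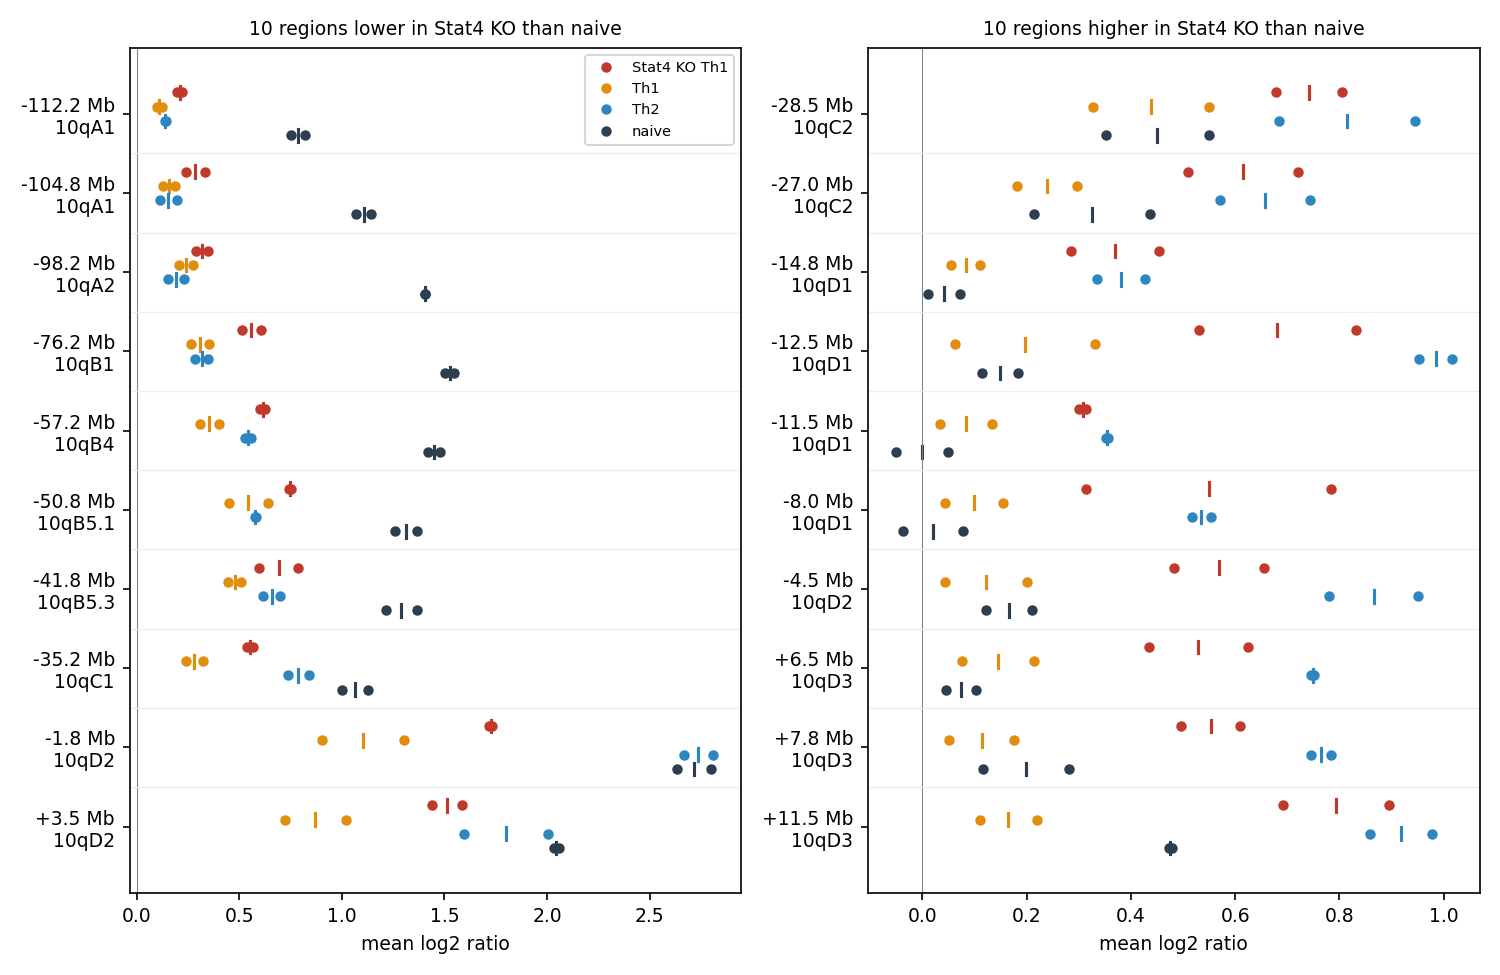
Mean log2 ratio of the 10 regions of chromosome 10 most lowered (left) and most raised (right) in Stat4 knockout against naive cells, labelled by distance from the bait in Mb and by band; points are arrays and bars group means. In every lower region beyond 50 Mb the knockout points sit nearer those of Th1 and Th2 cells than those of naive cells, and in the higher regions the knockout means sit nearer those of Th2 than of Th1 or naive cells.

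The gains of knockout cells on chromosome 10 were smaller, and most lay in stretches that were low in naive cells. Naive cells averaged 0.20 or less in 7 of the 10 named gains, and 0.48, 0.45 and 0.33 in those at 128500001, 89000001 and 90500001. The longest, 112000001 to 114500000 in 10qD2, had 0.48 and 0.66 over 5 bins in knockout arrays and 0.21 and 0.12 in naive arrays, a change of 0.40 (best bin SE 0.066, adjusted p = 0.00101). Th1 cells were at 0.12 and Th2 cells at 0.87. All 5 bins were above Th1 cells in the knockout, by 0.45 on average (best adjusted p = 0.00039), and none passed against Th2 cells (-0.30, best adjusted p = 0.07). At 128500001 to 130000000 in 10qD3, toward the end of the chromosome, knockout arrays had 0.69 and 0.90 and naive arrays 0.47 and 0.48 (change 0.32, best adjusted p = 7.99e-05). Th1 cells had 0.17 and Th2 cells 0.92 there, and the knockout was 0.63 above Th1 cells.

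Single bins showed the same. At 105000001 to 105500000 in 10qD1 knockout arrays had 0.53 and 0.83 and naive arrays 0.18 and 0.12 (change 0.53, adjusted p = 0.000514). Th2 cells had 0.98 and Th1 cells 0.20 in that bin. At 109500001 to 110000000 in the same band the knockout arrays differed widely, with 0.31 and 0.78 against 0.078 and -0.037 in naive arrays (change 0.53, adjusted p = 0.00213). At 124000001 to 124500000 in 10qD3 they had 0.44 and 0.62 against 0.046 and 0.10 in naive arrays (change 0.45, adjusted p = 0.000471). The other named gains, at 89000001, 90500001, 102000001, 106000001 and 125000001, were of 0.29 to 0.35. In 9 of the 10 named gains at least 1 bin was above Th1 cells, and in 1 of the 10 a bin was below Th2 cells. The gains were chosen on the knockout arrays that also enter those comparisons, so these counts describe the regions and support nothing further. All 10 gains lost the call when the median of a bin's probes took the place of their mean. Those at 89000001 and 90500001 also lost it with quantile normalization and with spread scaling, and that at 124000001 with spread scaling. In each of the 10 gains knockout replicate 2, the array that stood apart on X and Y, was above knockout replicate 1.

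Some bins that were high in naive cells were also high in the knockout, and no difference between them passed the test. At 92500001 to 93000000 in 10qC2 the knockout arrays had 1.06 and 1.35 and the naive arrays 1.29 and 1.62 (change -0.25, SE 0.096, adjusted p = 0.11). This bin was at 1.20 and 1.11 in Th1 arrays and at 0.47 and 0.28 in Th2 arrays, and the knockout was 0.83 above Th2 cells (SE 0.096, adjusted p = 0.000107). The bin at 94500001 to 95000000 followed suit, with 0.90 and 1.31 in knockout arrays, 1.24 and 1.18 in naive arrays and 0.56 above Th2 cells in the knockout (adjusted p = 0.0036). At 98500001 to 99000000 in 10qD1, knockout arrays had 1.04 and 1.48 and naive arrays 0.89 and 0.95 (change 0.34, adjusted p = 0.0918), and the knockout was 0.70 above Th2 cells (adjusted p = 0.00586) and 0.40 from Th1 cells (0.134). The bin at 110500001 to 111000000 was high in every group, at 1.63 and 1.51 in knockout arrays and 1.55 and 1.54 in naive arrays (change 0.025, SE 0.051, adjusted p = 0.786). These bins were picked after their values were seen.

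By distance the change turned sign along the chromosome. In 11 distance classes fitted with limma, 7 differed between knockout and naive cells (63.6%). Contact beyond 70 Mb was at 0.27 and 0.21 in knockout arrays and 0.68 and 0.68 in naive arrays, a change of -0.44 (SE 0.047, adjusted p = 0.000213), and 50 of its 89 bins fell and 0 rose. Between 40 and 70 Mb the change was -0.25 (adjusted p = 0.00376) and between 20 and 40 Mb -0.19 (0.0411). From 10 to 20 Mb the knockout was higher, with 0.38 and 0.58 against 0.27 and 0.26 in naive arrays (change 0.22, adjusted p = 0.0462), and 10 of 20 bins rose and 1 fell. From 2 to 5 Mb it was higher by 0.28 (0.72 and 0.84 in knockout arrays, 0.50 and 0.49 in naive arrays, adjusted p = 0.0203). At 1 to 2 Mb on the same side it was lower by -0.99 (adjusted p = 0.000389). On the telomeric side only the 2 to 5 Mb class passed (-0.41, adjusted p = 0.0462), and the 10 to 20 Mb class was at 0.86 and 1.05 in knockout arrays against 0.81 and 0.83 in naive arrays (0.147). None of the 11 classes differed between the knockout and the mean of Th1 and Th2 cells in limma (lowest adjusted p = 0.0935). Against each type alone the differences ran in opposite directions, since the knockout was above Th1 cells in 10 of the 11 classes (90.9%, adjusted p from 0.00109 to 0.0165) and below Th2 cells in 4 (36.4%, 0.000661 to 0.0295), which were the 3 proximal classes from 1 to 10 Mb and the distal class from 1 to 2 Mb. With spread scaling, added after the data were seen, 0 of 11 passed against either type. With spread scaling 0 of 11 passed between knockout and naive cells.

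**Figure D3:**
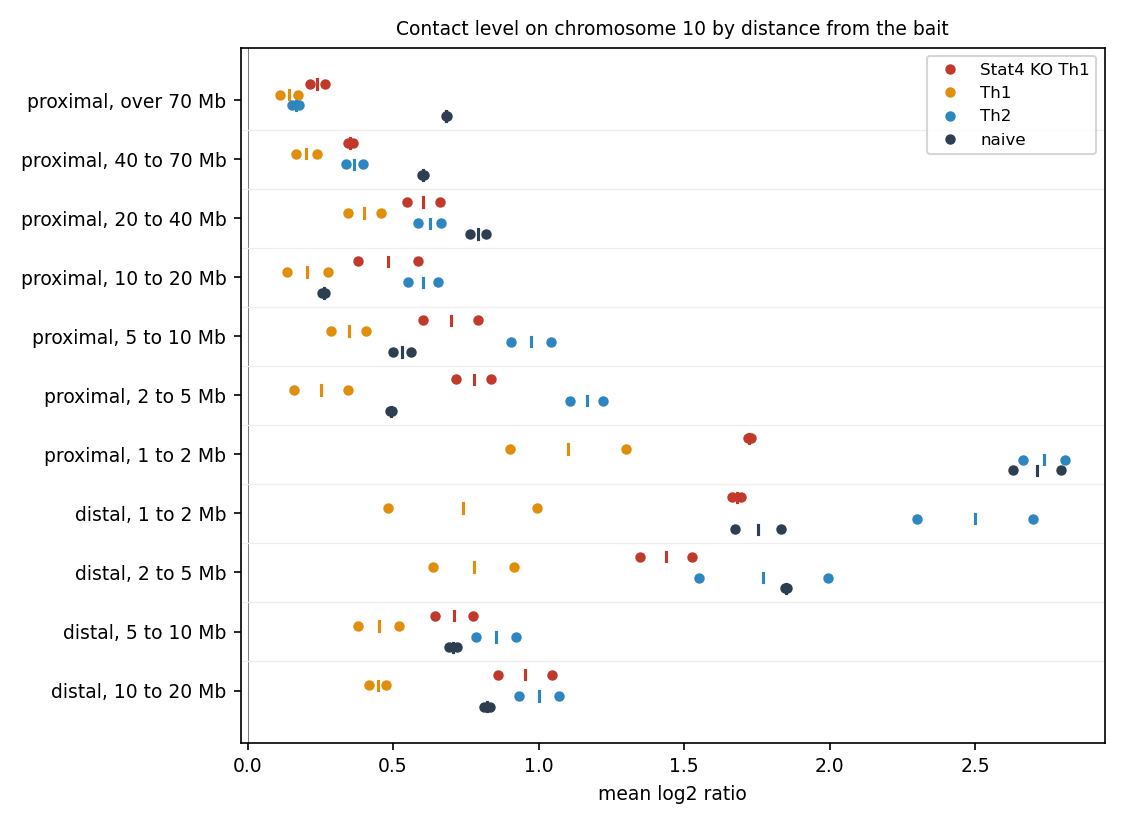
Mean log2 ratio on chromosome 10 by distance from the bait in Mb, centromeric (proximal) classes above and telomeric (distal) classes below; points are arrays and bars group means. Beyond 70 Mb the Stat4 knockout arrays lie at 0.27 and 0.21 and the naive arrays at 0.68 and 0.68, while from 2 to 20 Mb on the proximal side the knockout means exceed the naive means.

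Genes could be placed only in cytogenetic bands, so a gene named here need not lie in the bins that changed. Of 401 bands, 162 (40.4%) differed between knockout and naive cells in limma. On chromosome 10, 10 of 17 fell (58.8%) and 1 rose (5.88%). The 11 bands that hold the genes followed on this chromosome gave 6 lower and 1 higher.

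Band 10qA3 holds Ifngr1, which encodes the ligand-binding chain of the interferon gamma receptor, Tnfaip3, an inhibitor of NF-kappaB signalling, and Myb, a transcription factor of blood cell progenitors. Its level was 0.35 and 0.29 in knockout arrays and 1.33 and 1.34 in naive arrays, a change of -1.02 (SE 0.031, adjusted p = 2.31e-07), and it lay farthest below the naive level of the 11 bands. Th1 arrays had 0.29 and 0.21 and Th2 arrays 0.15 and 0.20. Band 10qB2 holds Prdm1, which encodes the repressor Blimp-1, Foxo3, a transcription factor of quiescence, and Cd24a. It fell by 0.53 (0.37 and 0.29 in knockout arrays, 0.84 and 0.89 in naive arrays, adjusted p = 1.26e-05). Band 10qB4 holds Prf1, the gene of the pore-forming protein perforin, and Ddit4, an inhibitor of mTOR signalling, and fell by 0.55 (0.46 and 0.48 in knockout arrays, 1.05 and 0.99 in naive arrays, adjusted p = 1.26e-05). The band of Fyn, a Src-family kinase of T cell receptor signalling, is 10qB1, and it fell by 0.41 (0.32 and 0.31 in knockout arrays, 0.74 and 0.72 in naive arrays, adjusted p = 1.38e-05).

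Smaller falls were measured in 10qC1, which holds Gadd45b, Tcf3 and Icosl, the ligand of the costimulator ICOS (-0.35, adjusted p = 0.00249), and in 10qB5.1, which holds Egr2, a factor of T cell anergy (-0.22, adjusted p = 0.0153). The band 10qD1, with Kitl, the gene of stem cell factor, and Syt1, rose: it had 0.44 and 0.65 in knockout arrays and 0.35 and 0.34 in naive arrays (0.20, SE 0.065, adjusted p = 0.0421). This rise lost the call when knockout replicate 2 or either naive array was left out, and with spread scaling or quantile normalization. Of the remaining bands, 10qC2, which holds Socs2, a feedback inhibitor of cytokine signalling, had 0.59 and 0.74 in knockout arrays and 0.65 and 0.67 in naive arrays (change 0.006, SE 0.053, adjusted p = 0.944). Band 10qC3, with the antiproliferative Btg1, changed by -0.055 (SE 0.088, adjusted p = 0.639).

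The bait's own band, 10qD2, holds Ifng, the cytokine gene Il22, Mdm1, the p53 inhibitor Mdm2 and Dyrk2. Outside 1 Mb of the bait it was at 1.04 and 1.17 in knockout arrays and 1.21 and 1.16 in naive arrays (change -0.082, SE 0.097, adjusted p = 0.524). The knockout was 0.59 above Th1 cells there (adjusted p = 0.0334), whose arrays had 0.65 and 0.38. Against Th2 cells, at 1.45 and 1.69, it differed by -0.47 (adjusted p = 0.102). Band 10qD3 holds both STAT genes of this chromosome, Stat6, which acts downstream of interleukin 4, and Stat2, which acts downstream of type I interferon. It also holds Il23a, Cdk4 and Gli1, and had 0.74 and 0.89 in knockout arrays and 0.82 and 0.80 in naive arrays (change 0.006, SE 0.062, adjusted p = 0.944).

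**Figure D4:**
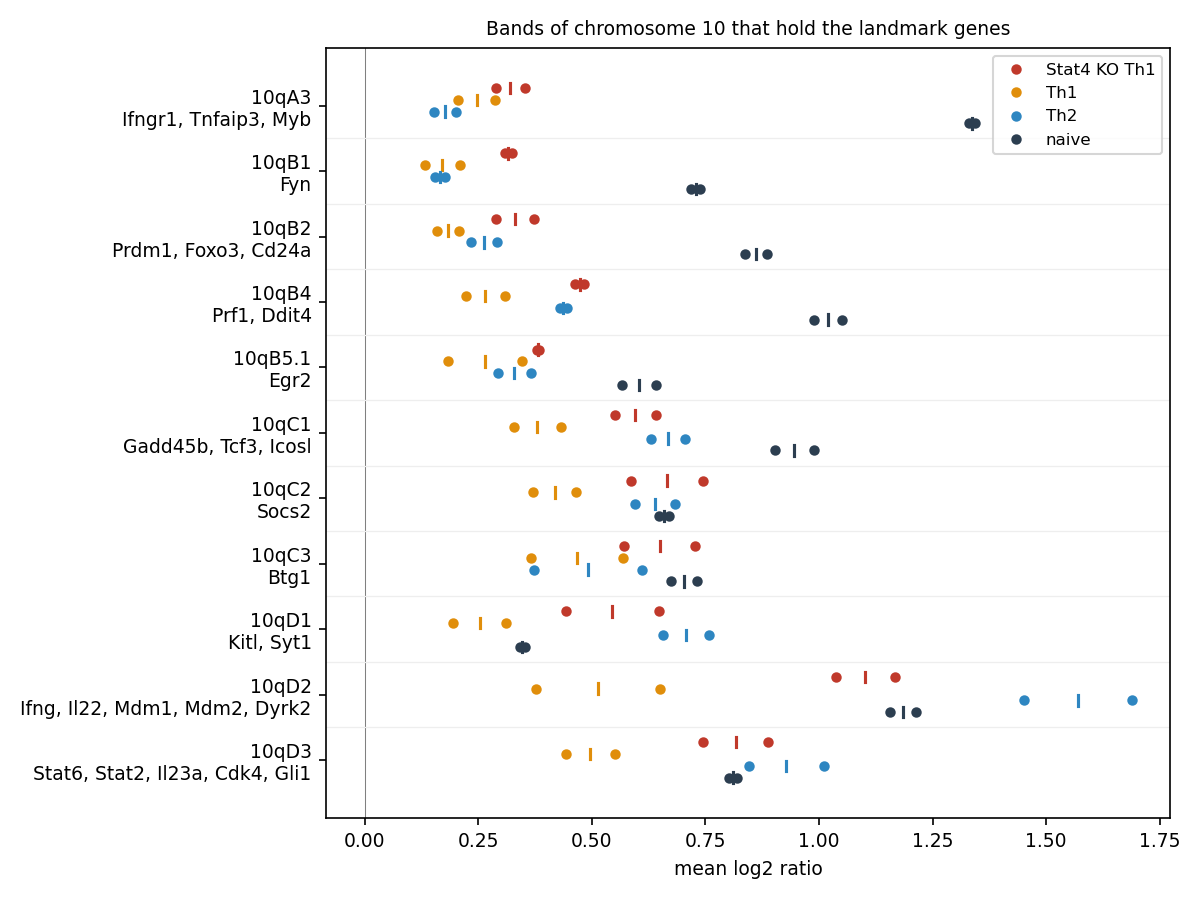
Mean log2 ratio of the 11 bands of chromosome 10 that hold the genes followed, from the centromeric end (top) to the telomeric end (bottom); points are arrays and bars group means. In 10qA3 to 10qB4 both Stat4 knockout arrays lie between 0.29 and 0.48 and both naive arrays between 0.72 and 1.34, whereas the groups overlap or nearly meet in 10qC2, 10qC3, 10qD2 and 10qD3.

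Which differences from naive cells were shared with other activated cells was examined directly. The mean of Th1 and Th2 cells differed from naive cells in 495 of 5021 bins (9.86%), with 47.8% of the chromosome 10 bins lower and 9.24% higher. That comparison uses the same naive arrays, so the counts are set side by side only. In each of the 10 named lower regions of the knockout, the mean of Th1 and Th2 cells was below naive cells too, with best adjusted p between 3.79e-14 and 1.37e-05. The regions were chosen on the same naive arrays, which favours such falls, so these values describe them and support nothing further. For example, the first region changed by -1.09 in the knockout and by -1.19 in the mean of Th1 and Th2 cells. Th2 cells alone did not fall in all of them. In the region beside the bait at 115500001 they were at 2.74 and naive cells at 2.71, and in that at 120000001, 2 of 5 bins were lower in Th2 cells and 1 was higher.

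The knockout itself differed from the mean of Th1 and Th2 cells in 32 of 5021 bins (0.637%), 32 higher and 0 lower in limma, with 608 at an unadjusted p under 0.05. Of these bins 20 lay on chromosome 10 (8.03%). Several kept part of a naive contact, as at 28000001 to 28500000 in 10qA4, where knockout arrays had 0.64 and 0.66, Th1 arrays 0.38 and 0.33, Th2 arrays 0.13 and 0.063, and naive arrays 1.46 and 1.18 (knockout minus activated 0.42, adjusted p = 0.00181). On chromosome 8, 84500001 to 85000000 in 8qC2 had 0.50 and 0.41 in knockout arrays and 0.50 and 0.33 in naive arrays, against 0.090 and 0.20 in Th1 and -0.049 and -0.076 in Th2 arrays (knockout minus activated 0.41, adjusted p = 0.000656). The count fell to 8 without knockout replicate 2, reached 100 without knockout replicate 1, was 19 without Th1 replicate 2, was 4 with quantile normalization, 2 of them on chromosome 10, and was 0 with spread scaling.

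Against each type alone, the knockout differed from Th1 cells in 95 bins (1.89%) and from Th2 cells in 62 (1.23%). On chromosome 10 it was above Th1 cells in 69 bins (27.7%) and below them in 1 (0.402%), the bin at 80000001 in 10qC1. The bins above Th1 cells included 20 of the 38 within 20 Mb on the centromeric side and 14 of the 22 on the telomeric side. Against Th2 cells 21 bins of chromosome 10 were higher (8.43%) and 26 lower (10.4%), and the direction split by distance. Within 20 Mb, 18 bins were below Th2 cells, 11 centromeric and 7 telomeric, and 1 on each side was above them, while beyond 70 Mb 11 of 89 bins were above Th2 cells and 0 below. The excess over Th1 cells changed with the scale of the arrays: after spread scaling 9 bins differed in all, 7 of them lower on chromosome 10. The count against Th1 cells was 30 without Th1 replicate 2 and 57 without knockout replicate 2, and the count against Th2 cells was 112 without knockout replicate 1 and 37 without Th2 replicate 2.

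Off chromosome 10 most differences were small, and the higher bins were concentrated on X. Of the 262 bins that rose in knockout cells, 115 were on X, where 292 bins were tested (39.4%). The next highest share was 7.87%, 21 of 267 bins on chromosome 7, leaving chromosome 10 aside. On X, 182 bins rose without knockout replicate 1 and 7 without knockout replicate 2, the array that stood apart on X and Y. With X and Y left out of the fit, an alternative added after the data were seen, 119 bins off chromosome 10 rose and 61 fell. On chromosome 10 that fit gave 24 higher and 98 lower. Without knockout replicate 2, 67 bins off chromosome 10 rose and 17 fell, and without naive replicate 2, 46 rose and 27 fell. The median of a bin's probes left 8 higher and 3 lower, quantile normalization 21 and 20, spread scaling 10 and 3, and scaling by the level at 1 to 2 Mb 6 and 2.

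Whole chromosomes moved little. In limma 18 of 21 differed (85.7%), 17 higher and chromosome 10 lower. Chromosome 10 averaged 0.44 and 0.48 in knockout arrays and 0.69 and 0.70 in naive arrays (-0.23, SE 0.038, adjusted p = 0.00176). With spread scaling its change was -0.039 (adjusted p = 0.65), and 18 chromosomes differed, all higher. Chromosome 1, by contrast, was at 0.062 and 0.059 in knockout arrays and 0.017 and 0.009 in naive arrays (0.047, SE 0.004, adjusted p = 0.000218). Small rises of this kind were general, since the median change over all bins was 0.044. They are not read as gains of particular chromosomes. The naive arrays were more uneven off chromosome 10. Bins below -0.1 numbered 16 and 12 of 4772 in knockout arrays, against 224 and 739 in naive arrays, and bins above 0.2 numbered 210 and 310 against 296 and 553.

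The losses off chromosome 10 were of single bins or short runs. At 92000001 to 93500000 of chromosome 16, in 16qC4, knockout arrays had 0.16 and 0.25 and naive arrays 0.52 and 0.57 over 3 bins, a change of -0.34 (best bin SE 0.045, adjusted p = 2.07e-06). At 43500001 to 44500000 of chromosome 2, in 2qB, they had 0.14 and 0.002 in the knockout and 0.44 and 0.52 in naive cells, a change of -0.42 (best bin SE 0.060, adjusted p = 1.42e-05). Both regions were low in the other activated cells too, with Th1 arrays at 0.036 and 0.061 and Th2 arrays at 0.099 and 0.11 in 16qC4. Both kept their call under all 17 alternatives tried. The other named losses were at 81500001 of chromosome 18 in 18qE3 (-0.43, adjusted p = 0.00358), where naive arrays themselves differed (0.29 and 0.69), at 51500001 of chromosome 14 in 14qC2 (-0.29) and at 32500001 of chromosome 4 in 4qA5 (-0.29).

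Gains off chromosome 10 included a bin at 42500001 to 43000000 of chromosome 7, in 7qB3, with 0.15 and 0.33 in knockout arrays and -0.17 and -0.26 in naive arrays (0.46, SE 0.057, adjusted p = 4.25e-05). Here the knockout was also above the mean of Th1 and Th2 cells, by 0.29 (adjusted p = 0.00959), since those arrays lay between -0.12 and -0.026. A bin at 42500001 to 43000000 of chromosome 14, in 14qB, behaved alike, with 0.24 in both knockout arrays and -0.083 and -0.12 in naive arrays (0.34, adjusted p = 0.000248, and 0.27 above activated cells, 0.00848). At 105500001 to 107000000 of chromosome 7, in 7qE3, 3 bins had 0.35 and 0.29 in knockout arrays and -0.003 and 0.027 in naive arrays (0.31, best adjusted p = 0.00412). The bins at 146000001 of chromosome 4 in 4qE1 (0.38) and 89000001 of chromosome 18 in 18qE4 (0.32) completed the named gains. The bin in 7qB3 kept its call under all 17 alternatives and that in 4qE1 under 11, losing it without knockout replicate 1 or naive replicate 2 among others. Those in 14qB, 7qE3 and 18qE4 lost it with the median of the probes, and the first 2 of them also when scaled by the level at 1 to 2 Mb. The bins in 7qB3 and 4qE1 held only 25 probes each and that in 14qB 28, against 85 in 18qE4. Stretches in 7qB3, 14qB and 7qE3 differed from both naive cells and the mean of Th1 and Th2 cells. In 7qE3 only 2 of the 3 bins were called against that mean. With spread scaling no bin was called against it. No gene is assigned to these stretches.

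The Giemsa stain of a band gives a coarse view of its chromatin, since pale bands (gneg) are on average rich in genes and the darkest (gpos100) poor. On chromosome 10 pale bins averaged 0.51 and 0.54 in knockout arrays and 0.84 and 0.85 in naive arrays, and 57 of 115 fell and 6 rose. In the darkest bands the means were 0.30 and 0.34 in knockout arrays and 0.42 and 0.42 in naive arrays, with 27 of 97 bins lower and 11 higher. Bins of the intermediate stain gpos33 had 0.57 and 0.65 in knockout arrays and 0.94 and 0.94 in naive arrays, with 15 of 37 lower and 8 higher. The change was -0.33 in these and -0.31 in pale bands, against -0.10 in the darkest, differences for which no test was run. Of the pale, darkest and gpos33 bins of chromosome 10, 49.6%, 27.8% and 40.5% were lower, against 39.8% of all its bins. Higher were 5.22%, 11.3% and 21.6%, against 10.0%. These shares were not tested either. On other chromosomes the sign of the change was the opposite, with the knockout higher in each stain. The mean changes there, 0.031 to 0.056, lay around the median change of 0.044 over all bins. The darkest bins were at 0.048 and 0.059 in knockout arrays and 0.004 and -0.009 in naive arrays, and pale bins at 0.074 and 0.078 in knockout arrays and 0.040 and 0.049 in naive arrays. Of 1991 pale bins there 49 fell (2.46%), against 1.51% of all bins off chromosome 10.

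**Figure D5:**
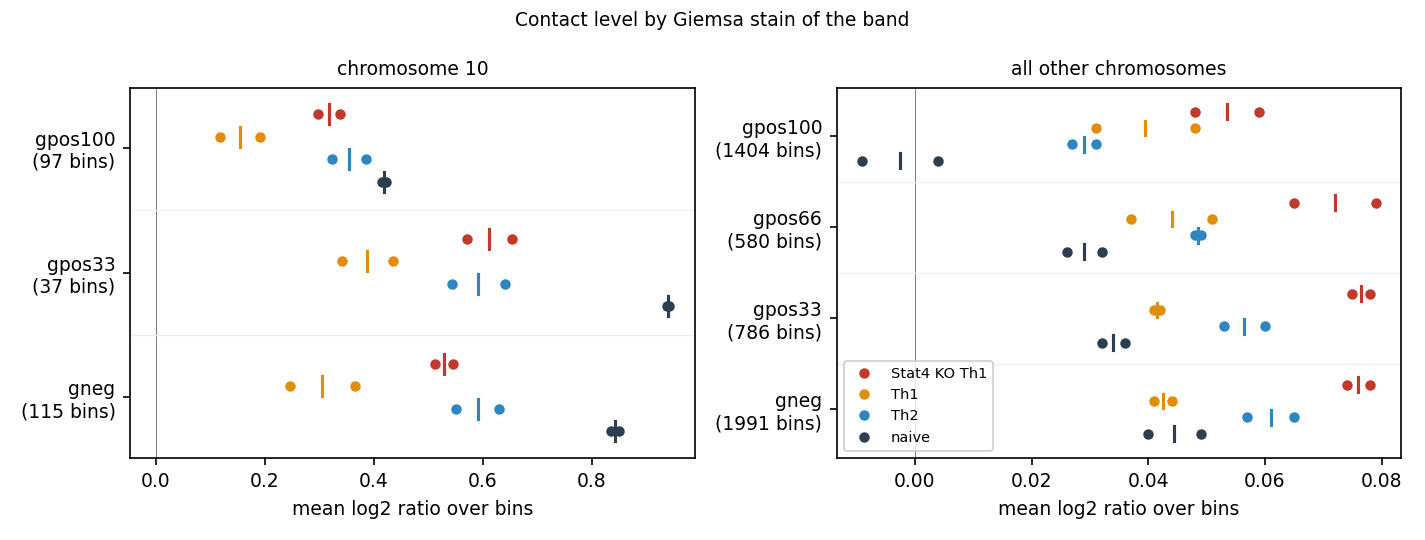
Mean log2 ratio over bins by Giemsa stain on chromosome 10 (left) and on all other chromosomes (right, with a narrower scale); points are arrays and bars group means. On chromosome 10 the Stat4 knockout arrays lie below the naive arrays in each stain, with 0.51 and 0.54 against 0.84 and 0.85 in pale bands, and on other chromosomes they lie above them in each.

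Off chromosome 10 the bands of lineage genes moved little. Over all 384 such bands, 138 rose (35.9%) and 13 fell (3.39%) in knockout against naive cells, with a median change of 0.044, and 23 of the risen bands were among the 26 on X. These counts rested on single arrays: 75 bands rose without knockout replicate 1, 29 without knockout replicate 2 and 4 without naive replicate 2. Of the 14 bands off chromosome 10 that hold genes of the Th1 programme, 4 rose and 1 fell (median 0.020). Those that rose were 1qC1.1, which holds Stat4 itself (0.043 and 0.056 in knockout arrays, 0.015 and -0.034 in naive arrays, change 0.059, adjusted p = 0.0465), 6qC1 with the interleukin 12 receptor chain Il12rb2 (0.060, adjusted p = 0.0353), 12qA3 with Twist1 (0.065, 0.0262) and XqD with the chemokine receptor Cxcr3 (0.13, 0.0153). XqD had 0.067 in knockout replicate 1 and 0.18 in knockout replicate 2. The band that fell was 15qE1, which holds Il2rb, a receptor chain for interleukins 2 and 15 (0.15 and 0.15 in knockout arrays, 0.20 and 0.32 in naive arrays, change -0.11, adjusted p = 0.039).

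The band of Tbx21, which encodes the Th1 factor T-bet, had 0.10 and 0.099 in knockout arrays and 0.080 and 0.12 in naive arrays (adjusted p = 0.993). Runx3, whose product binds the Ifng locus, lies in 4qD3, with 0.14 and 0.12 in knockout arrays and 0.18 and 0.22 in naive arrays (-0.075, adjusted p = 0.065). Of 12 bands with Th2 genes none passed in either direction (median -0.008); that of Il4 changed by -0.033 (adjusted p = 0.189) and that of Gata3 by -0.001 (0.978). Bands of naive and pan-T genes rose in 4 of 14 cases, those of Il7r, Lef1, S1pr1 and Cd4, by 0.043 to 0.081. Those of JAK, STAT and SOCS genes rose in 2 of 12, that of Stat4 in 1qC1.1 and that of Socs6 in 18qE4, and those of activation and cell cycle genes passed in 0 of 14. Beside these counts, 35.9% of all 384 bands off chromosome 10 rose, with a median change of 0.044. The rises named here are thus not read as a result about these genes. None of the 401 bands differed between the knockout and the mean of Th1 and Th2 cells in limma (0.0%), with 88 at an unadjusted p under 0.05.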

How the data were processed

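Per the labels' protocols, 4C DNA was labelled with Cy5 and cut genomic DNA of the same cells with Cy3. The deposited values are 1 log2 ratio per probe (384942 probes, median spacing 5037 bp), and the base 2, scanner, background correction, filters and build are not given in the sources used here. The base was taken as 2. The build was inferred: with mm8, 0 of 21 chromosomes had a probe past its end, against 11 for mm7, 5 for mm9 and 8 for mm10. The protocol describes adherent cells and other baits, so titles and source names set the groups. Sorted values of both replicates were equal within 0.011 for 99.5% of probes in the knockout and 99.99% in the naive pair, as a quantile step within a pair would give, which would make the spread between replicates and the p-values too small. In the Th1 pair the share was 42.8%, against 99.87% in the Th2 pair. Comparisons with Th1 cells thus involve arrays whose values did not match in this way.

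The median of the probes off chromosome 10 was subtracted from each array and no other normalization was applied. Probe means were taken over 500-kb bins holding 20 or more probes, leaving out bins within 1 Mb of the bait bin (117500001 to 118000000). limma 3.58.1 in R 4.3.3 (lmFit, contrasts, eBayes) was fitted to all 10 Ifng arrays, 5 groups of 2, two-sided, with Benjamini-Hochberg adjustment over all bins, bands, chromosomes or distance classes at 0.05. Adjacent called bins of 1 direction were merged; a region's change is the mean over its bins and its SE and p are those of its best bin. Named are at most 10 regions in each direction on chromosome 10 and 5 in each direction off it, by size of change, among bins in which both groups' arrays do not overlap, and a fixed list of genes on chromosome 10 and in 5 lists. Members, lists and rules were chosen with earlier results of these data known. Genes (104 of 110; 6 lie near band edges) were placed in bands through a GRCm38.p6 RefSeq table, with bands from circlize 0.4.16. On simulated data with 200 of 5021 bins changed, 66.7% were recovered at a change of 0.2 and 100% at 0.4 for the knockout and naive comparison, and 9.39% of calls were false. That share is above the threshold of 0.05. The noise was drawn independently for each bin, without a quantile step within pairs or differences in scale between arrays, so these figures need not hold for the real arrays. The number of arrays limits precision. Replicate deviations of the knockout and naive arrays correlated at -0.068, and those of other pairs of Ifng groups at -0.207 to 0.238. Replicate numbers were not taken to pair samples, but these correlations cannot show that samples were unpaired. Python 3.11.15, numpy 2.4.6, pandas 2.3.3 and matplotlib 3.10.9 made the tables and figures. The arrays with the Il4 bait were not used beyond the correlations between arrays.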

Additional observations from a re-analysis of the deposited data

How the results depend on the processing

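Counts of calls depended on the scale of the arrays, the summary of a bin's probes and single arrays. In place of 458 bins that differed between knockout and naive cells, quantile normalization gave 124 (26.6% of them higher, against 62.7% before), scaling by the level at 1 to 2 Mb 65 (36.9% higher), the median of the probes 65 and spread scaling 48 (37.5% higher). With only the 4 arrays compared 248 differed, with X and Y left out 302 and with the serial series as a random block 936. The block correlation of that last fit was negative (-0.175). Among the Ifng arrays only the knockout pair is of its series, so the fit cannot separate series from genotype. Leaving out 1 array of the compared groups gave 165 to 476 bins. The replicate block gave 416 bins, 30 bins against activated cells and 144 bands, and no named region lost its call under the block, whereas band 10qD1 did. Of the 32 bins against the mean of Th1 and Th2 cells, quantile normalization left 4, spread scaling 0, and leaving out 1 array 8 to 100. Against Th1 cells (95 bins) quantile normalization gave 31, spread scaling 9 and leaving out 1 array 30 to 135, and against Th2 cells (62 bins) these gave 24, 6 and 37 to 112. Of 162 bands, spread scaling gave 65, quantile normalization 10 and leaving out 1 array 14 to 134. The mean of Th1 and Th2 cells differed from naive cells in 61 bins with spread scaling, in place of 495, and 0 of 11 distance classes passed, in place of 7 against naive, 10 against Th1 and 4 against Th2 cells. Reversed under spread scaling were the 20 to 40 Mb proximal class (0.028), the distal classes from 1 (0.37) and 2 Mb (0.082) and the region 120000001 to 122500000 (0.020); causes were not tested.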
